A study of Rattus norvegicus with 7 samples.

Results

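The genes described here encode extracellular and lysosomal proteases and the inhibitors that hold them in check, measured in the testes of rats given cadmium. They were chosen by gene symbol alone: cathepsins (Cts and a single letter), cystatins (Cst), matrix metalloproteinases (Mmp), tissue inhibitors of metalloproteinases (Timp), the disintegrin metalloproteases of the Adam and Adamts families, serpins (Serpin) and serine proteases (Prss). Serpina3n, Prss40 and the Cstf genes were left out. This gave 137 genes with 173 probe sets, of 14217 genes with 20826 probe sets that name a single gene. By family there were 17 cathepsins, 10 cystatins, 32 serpins, 4 TIMPs, 17 MMPs, 16 ADAMTSs, 18 ADAMs and 22 PRSS genes. Cstpp1 matched the letters of the rule but is not a cystatin, and is kept apart.

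The animals were adult male Sprague-Dawley rats, an outbred stock. Of the 7 testis samples, 3 came from untreated rats, 2 from rats killed 8 h after a single intraperitoneal injection of cadmium chloride at 3 mg/kg, and 2 from rats killed 20 h after the same injection. No injected control group is among the labels, so injection and cadmium cannot be told apart. Each sample was 1 Affymetrix Rat230_2 array of whole-testis RNA, called a biological replicate in the labels and read here as 1 rat; the p-values measure the spread between such arrays, and their number limits the precision.

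Proteases and their inhibitors act as opposing pairs. Cathepsins digest protein in lysosomes and, when secreted, outside the cell, and cystatins block the cysteine cathepsins; TIMPs block MMPs and some ADAM and ADAMTS enzymes; serpins trap serine proteases by a suicide mechanism, although a few of them have other functions. In the testis, Sertoli cells secrete proteases and inhibitors where germ cells move across the seminiferous epithelium, among them cathepsin L, encoded by Ctsl. A separate group, with Adam2, Adam3a and Prss21 in it, is made by germ cells and carried on sperm, where several members are needed for fertilization.

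Signals are the deposited MAS 5.0 values on a linear scale, and differences are of log2(signal + 15), which understates changes of dim genes. All arrays had a trimmed mean of 250.1, and their medians lay between 52.8 and 71.9. Hybridization took place on 3 days. Day 1 held the first replicates of the untreated and the 20 h group. On day 2 there was untreated replicate 2 only. The remaining arrays, with untreated replicate 3, the complete 8 h group and the second replicate at 20 h, belong to day 3. These 4 arrays stood apart, with a log2 ratio of 3' to 5' actin signal of 1.19 to 1.42 against 0.733 to 0.985 on the other 3. Day 3 holds arrays of each group, so a same-day difference is given below: each cadmium array minus the untreated array of its day. Among cell type markers, the 8 endothelial genes kept were lower on average at both times, with medians of -0.62 at 8 h and -0.80 at 20 h. Their same-day medians were -0.79 and -0.24 at 8 h and -1.29 and -0.13 at 20 h, lower on replicate 1 of each time. Less RNA per cell and fewer cells of a type cannot be told apart in such bulk samples.

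Of the 137 genes, 81 had at least 1 probe set above its array's 40th percentile on 2 or more arrays, 99 probe sets in all. The other 56 genes had no signal above 56.5 on any array, with a median of their probe set means of 13.4, and were not tested. They include 18 of the 32 serpins, 10 PRSS genes, 9 MMPs and 7 ADAMTSs, and among the serpins Serpine2, an inhibitor of thrombin and plasminogen activators. In the untreated testis, 19 of the 81 genes averaged a signal of 1000 or more, 16 lay between 200 and 1000, and 46 lay below 200. Those at 1000 or more included the germ cell genes Adam3a, Adam32, Adam2, Cst8, Prss46 and Prss37 and the secreted inhibitors Cst3 and Timp2. Signals of different probe sets are not compared as levels, since probes differ in how well they bind.

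No member probe set passed the test in any comparison. In limma, with Benjamini-Hochberg adjustment over 20857 probe sets, 0 of 99 had an adjusted p under 0.05 in each of the 3 comparisons (8 h and 20 h against untreated, 20 h against 8 h), where 0% of all probe sets passed. The lowest adjusted p of a member was 0.836 at 8 h, 0.999 at 20 h and 1.00 for 20 h against 8 h. At an unadjusted limma p under 0.05 there were 6 at 8 h (6.06% of the members, against 5.22% of all probe sets), 1 at 20 h (1.01% against 3.11%) and 2 between the times (2.02% against 1.92%). The F test over the 3 groups called 0, with 2 at an unadjusted p under 0.05 (2.02% against 3.02%). At 8 h there were 3 on each side (3.03% each, against 1.16% of all probe sets higher and 4.06% lower): Prss37, Adam32 and a dimmer probe set of Timp2, which were higher, and Serpinb12, Adam33 and a dimmer probe set of Adamts9, which were lower. At 20 h the only such member was Timp1, higher (0.767% of all probe sets were higher at this p and 2.34% lower). Between the times they were Adamts4, higher at 20 h (1.01%, against 1.22%), and the dimmer Timp2 probe set, lower (1.01%, against 0.7%). Adamts9 was chosen after its values were seen.

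With 1 probe set per gene, 37 of 81 members were higher at 8 h, and the median of their log2 fold changes was -0.025 (all 11552 genes: 44.8% higher, median -0.03). At 20 h, 39 were higher with a median of -0.0067 (all genes: 43.9%, -0.03). Both comparisons share the same untreated arrays. The split depends on the scaling: quantile normalization put 49 of 81 higher at 8 h and 43 at 20 h, and scaling to one 75th percentile 53 and 47. Groups did not overlap in some members at each time. At 8 h, 11 of 99 lay wholly above the untreated arrays (11.1%, against 7.59%) and 17 wholly below (17.2%, against 15.4%). At 20 h it was 8 above (8.08%, against 4.65%) and 8 below (8.08%, against 10.7%), and for 20 h against 8 h 16 above (16.2%, against 15.2%) and 10 below (10.1%, against 13.2%).

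**Figure D1:**
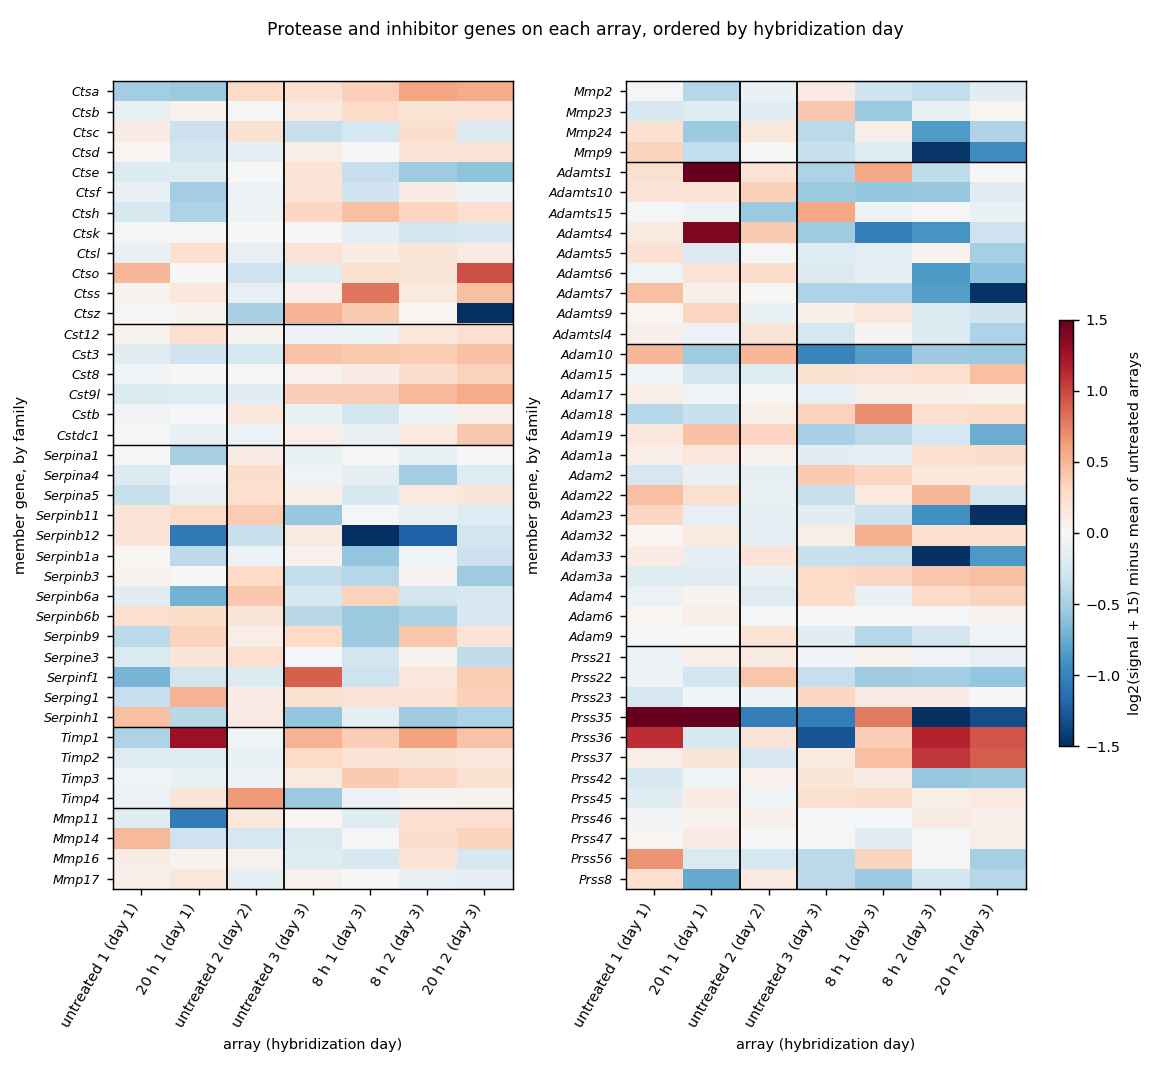
Each row is a member gene (1 probe set per gene, 80 genes, without Cstpp1) and each column an array, ordered by hybridization day with black lines between days. Colour gives log2(signal + 15) minus the mean of the 3 untreated arrays. Within their own rows Timp1, Adamts1 and Adamts4 are darkest red on 20 h replicate 1, where Prss35 is also dark red. Cst3, Cst9l and Ctsh are red across the 4 arrays of day 3, untreated replicate 3 included.

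Among the inhibitors, Timp1 was higher on average at 20 h, through 1 of the 2 arrays. It encodes a secreted inhibitor of MMPs that Sertoli cells make and cytokines induce. Timp1 gave signals of 323, 428 and 654 on the untreated arrays, 584 and 689 at 8 h, and 1114 and 612 at 20 h. The high array at 20 h was replicate 1, while replicate 2 lay below untreated replicate 3, so the groups overlap. The group means were 469 ± 169 (SD, n = 3), 637 ± 74.0 (SD, n = 2) and 863 ± 355 (SD, n = 2). The log2 fold change was 0.86 at 20 h (SE 0.31, limma unadjusted p = 0.021, adjusted p = 0.999) and 0.48 at 8 h (adjusted p = 0.836). Without 20 h replicate 1 the 20 h value was 0.43, and on the day 3 arrays alone it was -0.10. Against the untreated array of its own day, 20 h replicate 1 was 1.74 higher on the log2 scale, a signal ratio of 3.45. The 3 day 3 cadmium arrays differed from theirs by -0.16, 0.07 and -0.10.

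A pair of matrix proteases was highest on that same array. Adamts1, which cleaves versican and aggrecan, gave 39.0, 38.1 and 18.2 in untreated testes, 53.1 and 20.2 at 8 h, and 136 and 30.6 at 20 h. Adamts4, a related aggrecan-cleaving enzyme, gave 39.0, 49.3 and 18.9, then 8.8 and 11.6, then 114 and 24.6. Both were highest on 20 h replicate 1, the array on which Timp1 was highest, and its same-day differences were 1.48 for Adamts1 and 1.26 for Adamts4; replicate 2 lay within the untreated range of each. The log2 fold change at 20 h was 0.86 for Adamts1 (SE 0.53, limma adjusted p = 0.999) and 0.54 for Adamts4 (SE 0.53, limma adjusted p = 0.999). Without 20 h replicate 1 these were -0.00 and -0.31. Adamts4 lay below all untreated arrays at 8 h and above both 8 h arrays at 20 h, and the difference between the times was 1.51 (SE 0.58, limma unadjusted p = 0.027, adjusted p = 1.00; 0.65 without 20 h replicate 1). Its 8 h signals are near the lowest on the array, where log2 differences are poorly measured.

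The sequences before the starts of these genes are given because the 3 genes were high on 1 array together, beside that of Prss37, the member with the largest positive log2 fold change at 8 h. They are the 250 bases before the start of each gene, from RefSeq on GRCr8, on the gene's strand, and capitals mark a match to the core of the metal response element, which the metal-sensing factor MTF-1 binds.
Timp1, chrX:3771123-3771372, minus strand: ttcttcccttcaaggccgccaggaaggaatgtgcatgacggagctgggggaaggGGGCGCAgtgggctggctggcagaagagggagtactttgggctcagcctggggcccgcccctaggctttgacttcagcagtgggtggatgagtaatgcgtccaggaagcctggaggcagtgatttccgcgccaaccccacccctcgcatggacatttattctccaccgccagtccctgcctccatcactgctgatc
Adamts1, chr11:38427385-38427634, minus strand: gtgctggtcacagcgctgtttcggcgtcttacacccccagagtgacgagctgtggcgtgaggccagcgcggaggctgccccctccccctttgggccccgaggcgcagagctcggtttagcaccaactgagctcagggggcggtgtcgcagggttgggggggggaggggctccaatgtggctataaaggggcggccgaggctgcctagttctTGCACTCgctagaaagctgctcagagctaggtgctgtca
Adamts4, chr13:86202761-86203010, plus strand: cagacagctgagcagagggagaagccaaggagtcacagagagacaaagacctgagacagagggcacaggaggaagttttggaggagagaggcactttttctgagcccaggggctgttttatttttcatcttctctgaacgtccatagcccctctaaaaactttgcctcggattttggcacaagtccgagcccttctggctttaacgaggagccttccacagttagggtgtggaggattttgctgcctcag
Prss37, chr4:70301257-70301506, minus strand: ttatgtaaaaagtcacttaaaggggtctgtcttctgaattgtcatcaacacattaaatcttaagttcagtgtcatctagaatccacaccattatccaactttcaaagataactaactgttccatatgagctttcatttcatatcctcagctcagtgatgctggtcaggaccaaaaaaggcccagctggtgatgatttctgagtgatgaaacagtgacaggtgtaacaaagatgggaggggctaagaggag

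The core searched was TGCACNC or TGCGCNC on either strand. It occurred at -196 to -190 from the start in Timp1, as GGGCGCA on the gene's strand, and at -39 to -33 in Adamts1, as TGCACTC, and was not found in these windows of Adamts4 and Prss37. Such a match is common: 5829 of 27457 promoters of this length held one (21.2%), as did 20 of the 96 member genes in the promoter table (20.8%). The letters TGANTCA of the AP-1 site and TGACGTCA of the cAMP response element were searched without mismatch, and neither was found in the 4 windows. They occurred in 1747 (6.36%) and 466 (1.7%) of all promoters, and in 9 (9.38%) and 0 of the 96. These are matches of letters and not measured binding.

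**Figure D2:**
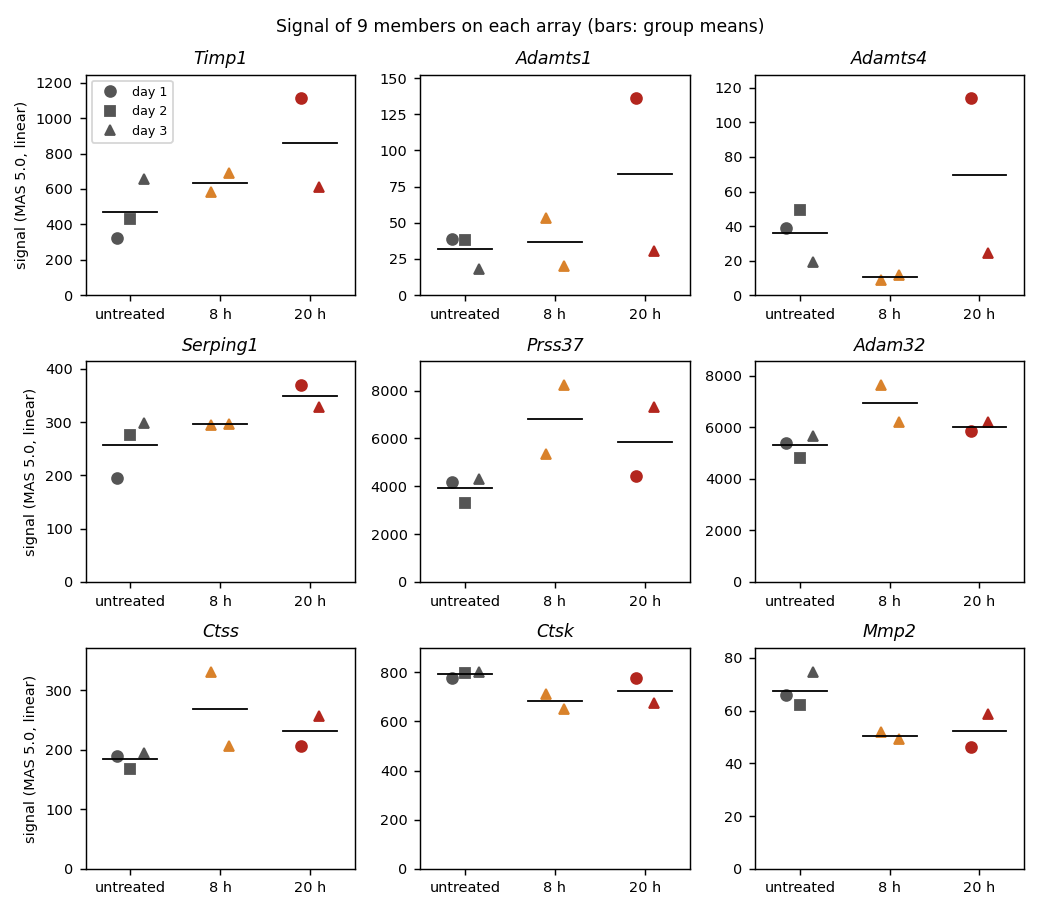
Linear signal on each array for 9 members, with groups on the horizontal axis, marker shape giving the hybridization day and bars giving group means (n = 3, 2 and 2). In Timp1, Adamts1 and Adamts4 the day 1 array at 20 h (1114, 136 and 114) lies far above the day 3 array of the same group, and in Prss37 the high values are on day 3 arrays.

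The other TIMPs were closer to untreated at 20 h. Timp2, which also takes part in activating Mmp2, gave 2594, 2745 and 3662 on the untreated arrays, 3417 and 3354 at 8 h, and 2595 and 3340 at 20 h. Its same-day differences lay between -0.13 and 0.00, and its log2 fold changes were 0.19 and -0.01. A dimmer probe set of Timp2 gave 253, 424 and 398, then 595 and 486, then 262 and 406, both 8 h arrays above the untreated ones (log2 fold change 0.60, SE 0.26, limma unadjusted p = 0.044, adjusted p = 0.836). The probe sets of Timp2 thus differ in size of change at 8 h. Timp3, the inhibitor bound to matrix, gave 381, 378 and 438, then 528 and 499, then 371 and 470 on its brightest probe set, both 8 h arrays above the untreated range (0.35, SE 0.16, limma adjusted p = 0.836). Of its 4 kept probe sets 3 were higher at 8 h and 1 was lower, by 0.74, so they disagree. Timp4 stayed dim, at 26.0 to 79.3 over the 7 arrays. As a family, 3 of 4 TIMPs were higher at 8 h and 3 of 4 at 20 h, with median log2 fold changes of 0.27 and 0.09 that kept their sign under both other scalings.

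Without further normalization most of the MMPs, which the TIMPs block, were lower on average after cadmium, and none passed the test. At 20 h 3 of 8, Mmp2, Mmp9 and Mmp24, lay wholly below the untreated arrays (all genes: 1178 of 11552), and at 8 h 1 of 8, Mmp2 (all genes: 1575). Mmp2 and Mmp9, the gelatinases that degrade basement membrane collagen, were dim. Mmp2 gave 66.0, 62.2 and 74.7, then 52.0 and 49.1, then 46.2 and 58.7, with all 4 cadmium arrays below the untreated ones, and log2 fold changes of -0.33 and -0.30 (SE 0.26 each, limma adjusted p 0.840 and 0.999). A second, dimmer Mmp2 probe set went the other way, by 0.18 and 0.06. Mmp9 gave 99.4, 76.1 and 56.7, then 64.2 and 18.1, then 55.0 and 32.3, with log2 fold changes of -0.83 and -0.66 (SE 0.41 each, limma adjusted p 0.836 and 0.999). Without 8 h replicate 2 the 8 h value of Mmp9 was -0.20, without replicate 1 -1.45, and without 20 h replicate 2 that of 20 h was -0.37. Neutrophils are a known source of Mmp9. Of 7 neutrophil markers listed 4 were on the array and 1 was kept, with signals of 577 to 901. This marker had log2 fold changes of -0.14 at 8 h and -0.17 at 20 h. Its same-day differences were -0.47 and -0.42 at 8 h and -0.03 and -0.62 at 20 h. The part of neutrophils in Mmp9 was not tested.

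The other MMPs showed no shared direction. Mmp14, which activates Mmp2 at the cell surface, gave 395, 228 and 236, then 272 and 336, then 220 and 352, with log2 fold changes of 0.12 and 0.01, and its dimmer probe set gave -0.59 and -0.00. Mmp24, another membrane-type enzyme, gave 208, 200 and 129, then 187 and 90.9, then 115 and 124 (-0.38 and -0.50), and its 2 other probe sets were also lower at both times. Mmp23 was lower on average at 8 h on each of its 3 probe sets, by 0.26 to 0.34, and within 0.07 of untreated at 20 h. Mmp11, Mmp16 and Mmp17 had log2 fold changes between -0.05 and 0.02 at 8 h, and of -0.40, -0.10 and 0.02 at 20 h. In all, 2 of 8 MMPs were higher at 8 h and 2 of 8 at 20 h, with medians of -0.19 and -0.20. Quantile normalization gave 4 of 8 higher at each time, turned the 8 h median to 0.01 and left that of 20 h at -0.07. Scaling to one 75th percentile gave 4 of 8 higher at 8 h and 2 of 8 at 20 h. With the hybridization day as a block, 2 of 8 were higher at 8 h (median -0.22) and 0 of 8 at 20 h (-0.24).

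Most ADAMTS genes were lower on average at 8 h, several of them split by hybridization day. At 8 h 8 of 9 ADAMTS genes were lower (median -0.08), but quantile normalization gave 5 of 9 higher (0.07), as did scaling to one 75th percentile (0.01). Adamts10, a protease of the fibrillin matrix, gave 189, 214 and 106, then 104 and 106, then 190 and 145. Untreated replicate 3 was as low as both 8 h arrays of its day, and the same-day differences at 8 h were -0.03 and -0.01 against a log2 fold change of -0.58. Adamts7 gave 177, 127 and 86.9, then 87.1 and 64.6, then 133 and 35.9, again with untreated replicate 3 the lowest of its group. Adamts5, another aggrecan-cleaving enzyme, gave 61.2, 48.6 and 41.9, then 44.3 and 52.6, then 41.5 and 31.2 (-0.04 and -0.35; -0.42 and -0.46 on its second probe set). Adamtsl4, which has no protease domain, gave log2 fold changes of -0.08 and -0.27. The dimmer Adamts9 probe set gave 62.3, 32.4 and 48.5, then 16.0 and 13.5, then 57.7 and 22.0 (-1.05 at 8 h, limma adjusted p = 0.836), and its brighter one -0.02.

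Cathepsins differed from untreated by less than 1 on the log2 scale at both times, and none passed the test. Ctsl, an endopeptidase and a Sertoli cell product, gave 1940, 1911 and 2406, then 2236 and 2368, then 2467 and 2267. The groups overlap, and the log2 fold changes were 0.15 and 0.19 (SE 0.14 each, limma adjusted p 0.859 and 0.999). Its dimmer probe set gave 348, 382 and 383, then 339 and 359, then 515 and 359, highest on 20 h replicate 1, and its 8 h value of -0.09 has the other sign. Ctsb, a cysteine protease of most lysosomes, gave 1168, 1241 and 1384, then 1561 and 1452, then 1315 and 1464, so both 8 h arrays were above the untreated ones (0.25 at 8 h, 0.14 at 20 h). Against the same day, its 4 differences lay between 0.07 and 0.17. Ctsd, the aspartic protease of lysosomes, had log2 fold changes of 0.09 and -0.03.

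Ctss, a cathepsin of macrophages and other antigen-presenting cells, gave 189, 168 and 194 in untreated testes, 331 and 205 at 8 h, and 206 and 257 at 20 h. All 4 cadmium arrays lay above all untreated ones, 2 of them closely. The log2 fold change was 0.48 at 8 h (SE 0.22, limma unadjusted p = 0.061, adjusted p = 0.836) and 0.31 at 20 h (adjusted p = 0.999). It leaned on 8 h replicate 1, whose same-day difference was 0.73 against 0.08 for replicate 2, and the 8 h value of Ctss without it was 0.15. Macrophage markers were also higher on average: 8 of 10 were higher at each time, with medians of 0.23 and 0.13, and their summed signal was 4998 to 5441 on the untreated arrays and 5813 to 5842 on the cadmium arrays. Most of that sum is Aif1, at 3216 to 3975 on the 7 arrays. The same-day macrophage medians were 0.35 and -0.07 at 8 h and 0.42 and -0.03 at 20 h. Cd163 lay above all untreated arrays on all 4 cadmium arrays, at 77.2 to 137 against 37.4 to 52.3. Its log2 fold changes were 0.91 and 1.01 (limma adjusted p 0.836 and 0.999). Csf1r went the other way, below all untreated arrays on all 4 cadmium arrays, at 70.8 to 110 against 123 to 129. The part of these cells in Ctss was not tested.

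Ctsk, a collagen-degrading cathepsin, lay below all untreated arrays on all 4 cadmium arrays, at 777, 799 and 802, then 713 and 650, then 775 and 676. The 20 h replicate 1 value of 775.2 was next to the lowest untreated one, 776.6, and the log2 fold changes were -0.21 and -0.13 (SE 0.14 each, limma adjusted p 0.836 and 0.999). Ctsh, an aminopeptidase, gave 949, 1063 and 1390, then 1536 and 1407, then 808 and 1333. It was higher on the day 3 arrays of every group, and its day-matched values at 8 h were 0.14 and 0.02. Ctsa gave 222, 404 and 386, then 422 and 501, then 217 and 489; on day 1 both the untreated and the 20 h array were low. Ctsz, a carboxypeptidase, gave 57.6, 38.2 and 91.5, then 82.7 and 60.8, then 61.4 and 10.3, and its low point was 20 h replicate 2. Over the family, 8 of 12 cathepsins were higher at 8 h (median 0.18, same sign under both other scalings, 0.04 with the hybridization day as a block) and 4 of 12 at 20 h (-0.07, same sign under all 3).

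Counted over the whole set, 3 of 81 members had all 4 cadmium arrays above all untreated arrays (3.7%, against 2.19% of all genes): Ctss, Adam32 and Prss37. The reverse held for Ctsk and Mmp2 (2.47%, against 4.4%).

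Of the cystatins, the inhibitors of these cathepsins, 6 of 10 were kept. Cst3, the secreted inhibitor cystatin C, gave 3168, 2940 and 4759, then 4639 and 4597, then 2877 and 4789. It took a high value on the 4 arrays of day 3 and a low one on the other 3, and its same-day differences were -0.14 to 0.01, against a log2 fold change of 0.38 at 8 h. Cst9l, a testis cystatin, followed the same course at 2324, 2398 and 3484, then 3467 and 3758, then 2349 and 3965. Cst8, of the reproductive tract, gave 4069, 4148 and 4393, then 4586 and 5028, then 4235 and 5327 (0.19 and 0.18). Cst12 gave 1542, 1533 and 1394, then 1413 and 1664, then 1760 and 1765; both 20 h arrays were above the untreated ones, on different days (0.24, SE 0.13, limma adjusted p = 0.999), with same-day differences of 0.19 and 0.34. Cstb, the inhibitor inside the cell, had log2 fold changes of -0.18 and 0.03. All 6 kept cystatins were higher on average at 20 h (median 0.16), 5 of 6 after quantile normalization (0.07) and with the day as a block (0.11); at 8 h 5 of 6 were higher (0.12), against 3 of 6 with the block (-0.04). Cstpp1 was lower on average at both times, by 0.17 and 0.07.

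**Figure D3:**
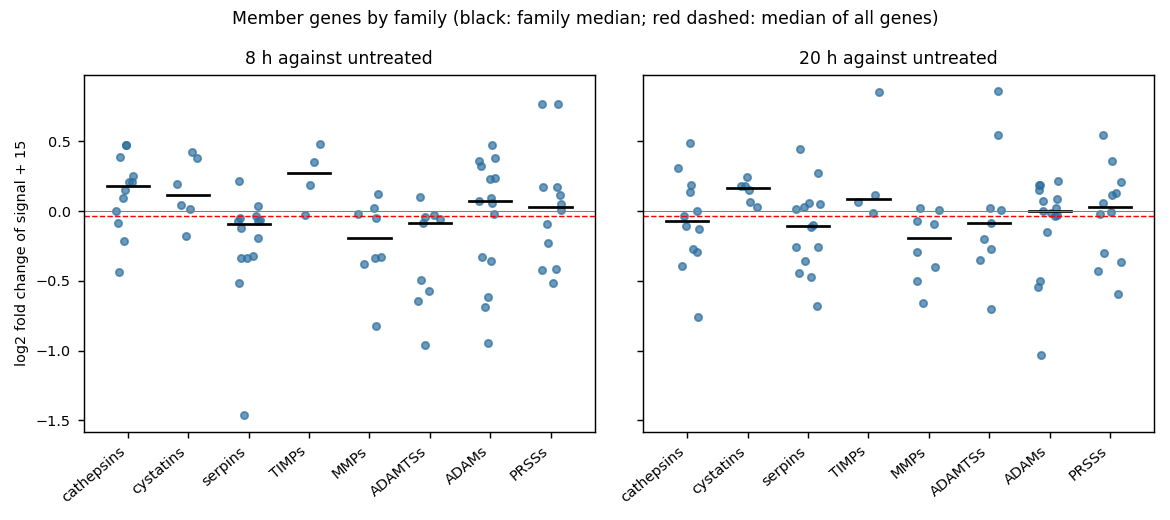
Log2 fold change of signal + 15 for each kept member gene (points, 80 genes), by family, at 8 h and 20 h against untreated; black bars are family medians and the dashed line is the median of all genes (-0.03 at both times). The family medians lie between -0.20 and 0.27, and Serpinb12 is the lowest point at 8 h, at -1.46.

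Serpins were fewer among the kept genes, 14 of 32. Serping1, the C1 inhibitor that restrains complement and the contact system, gave 195, 275 and 299, then 295 and 297, then 370 and 328. Both 20 h arrays were above the untreated ones, and the log2 fold change was 0.44 (SE 0.20, limma unadjusted p = 0.056, adjusted p = 0.999). The same-day difference was 0.88 for 20 h replicate 1 and 0.13 for replicate 2. Serpina5, the protein C inhibitor made in the male tract, gave 1464, 2200 and 1967, then 1579 and 2055, then 1699 and 2094, with log2 fold changes of -0.04 and 0.03. Serpinh1, the collagen chaperone HSP47 of the endoplasmic reticulum and no protease inhibitor, gave 238, 187 and 109, then 152 and 113, then 123 and 119 (-0.34 and -0.44). Untreated replicate 3 was already as low as the cadmium arrays of its day. On day 1, in contrast, the signal ratio of 20 h replicate 1 to untreated replicate 1 was 0.517.

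Serpinb12 had the lowest unadjusted p of the members at 8 h. It gave 57.4, 35.3 and 54.7, then 4.3 and 12.3, then 15.2 and 36.9, so both 8 h arrays lay below the untreated ones, with a log2 fold change of -1.46 (SE 0.42, limma unadjusted p = 0.0061, adjusted p = 0.836). The 20th percentile of all signals lay at 18.0 or below on each array, so the 8 h values are near the floor, and the log2 fold change ran from -2.55 with a pseudocount of 1 to -0.76 with one of 50. Serpinb6b, an intracellular serpin, gave 542, 521 and 338, then 306 and 325, then 556 and 384. It split by day, with a log2 fold change of -0.51 at 8 h and same-day differences of -0.13 and -0.05. Serpinb6a gave 530, 791 and 501, then 762 and 489, then 358 and 503, with no separation of the groups. Serpinf1, pigment epithelium-derived factor and no inhibitor either, gave 58.2, 88.3 and 207, then 80.6 and 119, then 83.0 and 139, and it was 1.22 below untreated replicate 3 on 8 h replicate 1. Of the serpins, 2 of 14 were higher at 8 h (median -0.10; 8 of 14 and 0.02 after quantile normalization) and 6 of 14 at 20 h (-0.11; 7 of 14 after quantile normalization).

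The PRSS genes held the largest positive log2 fold change of the whole set at 8 h. Prss37, a protease-like protein of the sperm that lacks a complete catalytic triad and is needed for Adam3 processing, gave 4193, 3281 and 4316 in untreated testes, 5359 and 8236 at 8 h, and 4415 and 7331 at 20 h. All cadmium arrays were above the untreated ones, with the higher value of each time on replicate 2. The means were 3930 ± 565 (SD, n = 3), 6798 ± 2034 (SD, n = 2) and 5873 ± 2061 (SD, n = 2). The log2 fold change was 0.77 at 8 h (SE 0.25, limma unadjusted p = 0.012, adjusted p = 0.836) and 0.54 at 20 h (SE 0.25, limma unadjusted p = 0.056, adjusted p = 0.999). Without 8 h replicate 2 the 8 h value was 0.46, and without 20 h replicate 2 that of 20 h was 0.18. Same-day differences were 0.31 and 0.93 at 8 h and 0.07 and 0.76 at 20 h, 3 of them against the same array, untreated replicate 3. The 2 other probe sets of Prss37 did not pass the filter, with signals of 2.4 to 49.1, so a single probe set carries this.

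Other testis serine proteases were close to untreated. Prss21, testisin, gave 769, 901 and 793, then 854 and 797, then 882 and 754 (0.01 and -0.01, SE 0.15 each). Prss46 gave 3972, 4287 and 3994, then 4032 and 4431, then 4217 and 4288 (0.05 and 0.06, SE 0.12 each). Prss45 had log2 fold changes of 0.17 and 0.13. Prss22 lay below all untreated arrays on both 8 h arrays, at 129, 188 and 105, then 90.3 and 92.0, then 111 and 86.5 (-0.52 at 8 h, same-day -0.19 and -0.16). Prss8, prostasin, a membrane-anchored protease of epithelia, gave -0.41 and -0.59, and Prss56 0.18 and -0.36. In all, 7 of 12 PRSS genes were higher at 8 h (median 0.03; -0.05 after quantile normalization) and 6 of 12 at 20 h (0.03).

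Prss35 and Prss36 swung between rats of the same group. Prss35 gave 360, 29.4 and 29.0 in untreated testes, 140 and 14.1 at 8 h, and 289 and 20.8 at 20 h. In each group replicate 1 was high and the others low, and the 3 high arrays came from days 1 and 3. Prss36, a protease with several catalytic domains, gave 264, 133 and 37.8, then 153 and 275, then 96.1 and 235. Its same-day differences were 1.67, 2.46 and 2.25 on day 3, where untreated replicate 3 was the lowest of all arrays, and -1.33 on day 1.

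**Figure D4:**
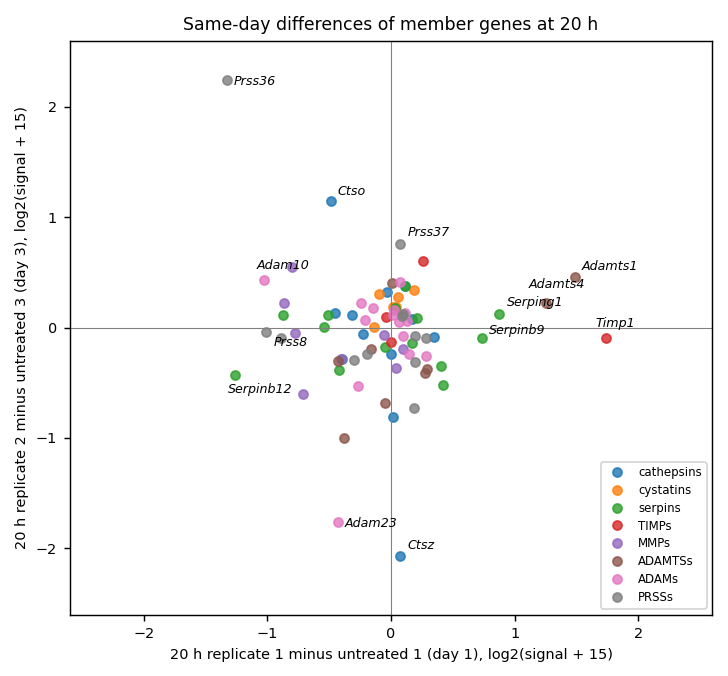
Each point is a member gene: its same-day difference on 20 h replicate 1 (horizontal, against untreated 1 of day 1) and on 20 h replicate 2 (vertical, against untreated 3 of day 3), in log2(signal + 15) and coloured by family. Timp1 (1.74 and -0.10) and Adamts1 (1.48 and 0.46) lie to the right, Prss36 (-1.33 and 2.25) at the upper left, and most members lie near the centre.

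Few members reached a 2-fold same-day difference with a signal of 200 or more on either array. On 8 h replicate 1 it was 1 of 40 such probe sets, lower (Serpinf1; 2.5%, against 0.451% of all), and on 8 h replicate 2 it was 1 of 41, higher (Prss36; 2.44%, against 0.44%). On 20 h replicate 1, 1 of 43 was higher (Timp1; 2.33%, against 1.14%) and 1 lower (Prss36; 2.33%, against 0.778%). On 20 h replicate 2, 1 of 41 was higher (Prss36; 2.44%, against 0.431%) and 0 were lower (against 0.361%). With 1 array on each side these differences have no test.

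Among the ADAMs of sperm, Adam32 was higher on average at 8 h. Adam32, of spermatogenic cells, gave 5392, 4825 and 5685, then 7646 and 6230, then 5845 and 6225, with all cadmium arrays above the untreated ones. The log2 fold change was 0.38 at 8 h (SE 0.14, limma unadjusted p = 0.024, adjusted p = 0.836; 0.16 after quantile normalization and 0.24 without 8 h replicate 1) and 0.19 at 20 h (adjusted p = 0.999). Adam3a, a sperm protein needed for passage into the oviduct, gave 7759, 8097 and 10722, then 10884 and 11630, then 7885 and 11991. Its untreated array of day 3 was level with the 8 h arrays, and the same-day differences were 0.02 to 0.16. Adam2, fertilin beta, split the same way at 4118, 4470 and 6490, then 6122 and 5492, then 4558 and 5497, and was below untreated replicate 3 on each cadmium array of day 3. Adam1a, fertilin alpha, gave 2592, 2507 and 2170, then 2199 and 2888, then 2724 and 2897, with both 20 h arrays above the untreated ones (0.22, SE 0.16, limma adjusted p = 0.999). Adam18 gave 495, 714 and 857, then 1101 and 799, then 532 and 815 (0.47 and -0.03). Spermatid markers split by day as well: the summed signal of 9 was 138430 to 145946 on day 3, against 95446 to 104226 elsewhere, and their part was not tested.

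The remaining ADAMs include sheddases of the cell surface. Adam17, which releases tumor necrosis factor, gave 447, 424 and 383, then 439 and 441, then 401 and 434, with log2 fold changes of 0.08 and 0.00 (SE 0.15 each). Adam10, which cleaves Notch and cadherins, gave 142, 141 and 40.7, then 47.5 and 60.7, then 61.7 and 60.1. The untreated rat of day 3 was the lowest of all arrays, so the log2 fold changes of -0.69 and -0.55 (SE 0.43 each, limma adjusted p 0.836 and 0.999) sit beside same-day differences of 0.17 and 0.44 at 8 h, and without that array they were -1.19 and -1.04. On 20 h replicate 1 Adam10 was 1.03 below the untreated array of day 1. Its dimmer probe set gave -1.04 and -1.18. Adam23, an adhesion protein without protease activity, gave 114, 79.4 and 77.2, then 68.3 and 40.1, then 80.3 and 12.2 (-0.62 and -1.03, limma adjusted p 0.840 and 0.999). Without 20 h replicate 2 the 20 h value of Adam23 was -0.12, without replicate 1 -1.93, and without 8 h replicate 2 that of 8 h was -0.32. Adam33 gave 80.6, 86.5 and 54.6, then 54.1 and 15.1, then 64.5 and 33.2 (-0.94 at 8 h, SE 0.41, limma unadjusted p = 0.047, adjusted p = 0.836). Without 8 h replicate 2 the Adam33 value was -0.34, and without replicate 1 it was -1.54. Over the family, 9 of 15 ADAMs were higher at 8 h (median 0.08, and -0.02 with the day as a block) and 8 of 15 at 20 h (0.00).

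Some members were split by hybridization day whatever the treatment. Of the 81 genes, 12 had all 4 day 3 arrays above the other 3 (14.8%, against 14.6% of all genes): Adam15, Adam18, Adam2, Adam3a, Cst3, Cst8, Cst9l, Ctsb, Ctsh, Prss23, Timp2 and Timp3. The reverse held for 13 (16.0%, against 15.2%): Adam10, Adam19, Adam23, Adam33, Adam9, Adamts10, Adamts4, Adamts6, Adamts7, Cstpp1, Prss22, Serpinb11 and Serpinb6b. These genes were chosen by a rule that includes untreated replicate 3. Both 8 h arrays were of day 3, and 2 of the 3 untreated arrays were not, so the 8 h comparison sets day 3 arrays mostly against arrays of other days. With the day as a block limma called 0 members in each comparison, with 6 at an unadjusted p under 0.05 for 8 h, 6 for 20 h and 4 for the difference of the times. The same-day medians of the 81 members were -0.010 and 0.017 at 8 h and 0.015 and -0.038 at 20 h.

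**Figure D5:**
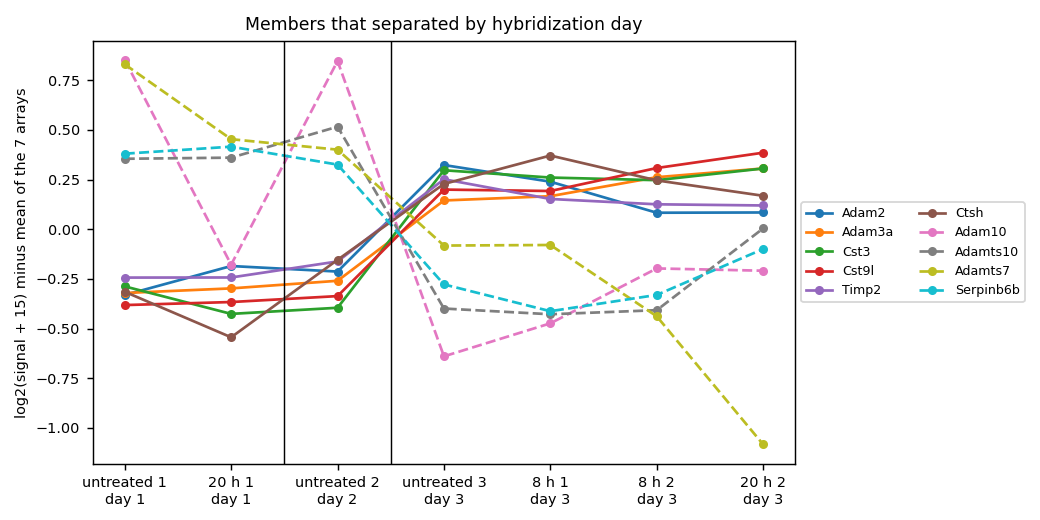
Log2(signal + 15) of 10 members minus the mean of the 7 arrays, with arrays ordered by hybridization day and vertical lines between days; solid lines are members high on day 3 and dashed lines members low on it. The 10 were chosen for this split; Cst3, for example, gave 4759 on untreated replicate 3 and 4597 to 4789 on the cadmium arrays of day 3.

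Of 14 genes with several kept probe sets, the probe sets had the same sign in 9 at 8 h, in 11 at 20 h and in 8 between the times. The genes that disagreed at 8 h were Ctsc, Ctsl, Mmp14, Mmp2 and Timp3, and at 20 h Adamts9, Mmp14 and Mmp2. Ctsc, dipeptidyl peptidase I, was chosen for mention after its values were seen.

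Other genes of the same pathways, none of them members, gave no calls either. Of 13 genes of plasminogen activation and coagulation 10 were kept, with 6 higher at 8 h (median 0.04) and 8 at 20 h (0.13). F3, tissue factor, gave 94.1, 85.2 and 108, then 120 and 80.3, then 348 and 96.1, highest on the same 20 h array as Timp1, Adamts1 and Adamts4. On that array the summed signal of 6 Leydig cell markers was 2469, against 5871 to 10984 on the other arrays. The sum of 8 endothelial markers was 418 there, against 793 to 836 on the untreated arrays. It was not the lowest such sum, since the first 8 h array gave 384. The second cadmium arrays gave 643 at 8 h and 677 at 20 h. At each time the lower endothelial sum was that of replicate 1. The part of either cell type in these values was not tested. Plat, tissue plasminogen activator, gave 56.8, 76.1 and 62.7, then 82.0 and 65.4, then 92.6 and 98.0, both 20 h arrays above the untreated ones (0.47, SE 0.24, limma adjusted p = 0.999). Of other inhibitors 6 were kept, 2 higher at 8 h and 3 at 20 h, and A2m, the broad protease trap alpha-2-macroglobulin, lay between 404 and 476 on all arrays. Of 17 lysosomal genes kept, 8 and 7 were higher (medians -0.02 and -0.08). Of 10 other sheddases and convertases 3 and 1 were higher (-0.21 and -0.16). Furin, which activates several MMPs and ADAMs, was 0.65 lower on average at 8 h (SE 0.25, limma unadjusted p = 0.027, adjusted p = 0.836). Its same-day differences at 8 h were -0.15 and -0.64, and with the day as a block its log2 fold change was -0.39. Of 3 calpains kept, 1 and 0 were higher. Without further normalization 7 of 8 sperm surface and acrosome genes were higher at each time (0.20 and 0.09). Among them was Zpbp, a zona pellucida-binding protein, by 0.38 and 0.40 (limma adjusted p 0.836 and 0.999). The 8 h values of Acr, Acrbp and Ace were 0.18, 0.22 and 0.19, and 0.05, 0.04 and 0.02 after quantile normalization. That of Calr3 went from 0.07 to 0.10.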

How the data were processed

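Total RNA of 7 rat testes had been hybridized to Affymetrix Rat230_2 arrays. The deposited values are signal intensities on a linear scale, made with MAS 5.0 per the labels' series design, which also names GeneSpring 7.2; the instrument's experiment files hold other information, namely settings, per the file headers, and gave the hybridization day. Staining of untreated replicate 2 followed an older protocol (25 °C, 600 s; the others 35 °C, 300 s), and its file gives mouse as sample type where its labels name a rat; it was kept.

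The value table has 31099 probe sets, with 57 controls. Among the rest, 20826 name 1 gene, 436 several and 9780 none here. Of the 137 member genes, 136 were found in the RefSeq table, and Prss48 was not. Values were log2(signal + 15), without further normalization. A probe set was kept where 2 or more arrays had it above their own 40th percentile (20857, for 11552 genes). limma 3.58.1 in R 4.3.3 fitted the 3 groups together (eBayes with intensity trend, 4 residual and 5.48 prior degrees of freedom, Benjamini-Hochberg over all kept, threshold 0.05). The script was tested on simulated data. Per gene, the probe set with the highest mean stands for it in counts and medians. Precision rests on the number of arrays; no counts exist.

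The members and lists were chosen with earlier results of these data known. Named were fixed genes of each family, the 3 brightest of each family, the largest rise and fall per family and comparison, any member past the threshold, members 2-fold apart on the same day at a signal of 200 or more, and every kept probe set of these. Alternatives were other pseudocounts, filters and scalings, no intensity trend, only the groups compared, replicate number or day as a block, day 3 alone, and leaving out each array. Replicate numbers were not used for pairing: differences between replicates 1 and 2 correlated at -0.02, 0.08 and 0.17 between groups.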

Additional observations from a re-analysis of the deposited data

How the results depend on the processing

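No member was called in any comparison or in the F test under any alternative run, and the lowest adjusted p of a named member under any was 0.176. Over all probe sets, calls appeared only on day 3 alone (8 at 8 h, 2 at 20 h), without 8 h replicate 2 (1 at 8 h, 1 between the times) and without 20 h replicate 2 (8 at 20 h, 1 between the times). The member medians are small, and these moved by more than the spread between arrays. At 8 h (reported -0.025) they were -0.057 with no filter, 0.038 with a filter at the 60th percentile, 0.063 after quantile normalization and 0.069 after scaling to one 75th percentile; leaving out 1 array gave -0.025 to 0.041. At 20 h (reported -0.0067) the same 4 gave -0.035, 0.028, 0.021 and 0.052, the hybridization day as a block -0.046, day 3 alone -0.038, and leaving out 1 array -0.058 to -0.0034. For 20 h against 8 h (reported -0.016) they were 0.0087 with no filter, -0.035 with the stricter filter and -0.063 after 75th percentile scaling; leaving out 1 array gave -0.046 to -0.0079. With the replicate number as a block the medians were -0.018, -0.058 and -0.016, and no call changed; arrays of 1 number share only that number. Same-day medians under alternatives added after seeing the data were, for 8 h replicate 1, -0.036 with 75th percentile scaling. For 8 h replicate 2 they were -0.0032 with that scaling, -0.053 with no filter and 0.037 with the stricter filter, and for 20 h replicate 1, in the same order, 0.084, -0.015 and 0.035. For 20 h replicate 2 they were -0.0072 after quantile normalization, -0.065 with no filter and 0.057 with the stricter filter. The cause of these moves was not tested. Of 174 values of named members over 3 comparisons, 72 kept their sign under all alternatives and 102 changed it under at least 1. The median of all probe sets was -0.08, -0.05 and 0.02 in the 3 comparisons, and within 0.03 of 0 after either other scaling. Low signals limit the MMPs, ADAMTSs and Serpinb12.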
